A study of Mus musculus with 71 samples.

Results

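Oocytes grown in culture from mouse embryonic stem cells with a Stat3 knockout were set against wild-type oocytes, both sorted on day 11 of in vitro differentiation. The comparison rests on 4 RNA-seq libraries, 2 of the Stat3 knockout and 2 of the wild type, out of 71 samples in the series, and they were chosen by their labels alone. Both groups carried the Blimp1-Venus and Stella-CFP reporters on a C57BL/6 X 129 background. In each, germ cells induced from stem cells were aggregated with gonadal somatic cells of female embryos, from which SSEA1 and CD31 positive cells had been removed. Knockouts of Lhx8, Figla and Sub1 sorted on the same day, with the same reporters and 2 libraries each, are set beside them. The stem cell lines were kept with LIF, a cytokine that acts through STAT3, before induction. Both groups received retinoic acid at the start of aggregation and the estrogen receptor antagonist ICI182780 before sorting, so neither is a group without these agents. Oocytes that the labels call SC+ were isolated by sorting, and strand-specific libraries were made from their polyA RNA. The labels do not say how the Stat3 knockout was made, whether it is 1 clone, or whether the paired libraries came from separate cultures. Each p-value therefore measures only the spread between libraries, which the fit shared over 42 libraries of 21 in vitro groups of day 11 and day 13.

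STAT3 is a transcription factor that lies latent in the cytoplasm. Cytokines of the interleukin 6 and leukemia inhibitory factor family bind receptors that share the gp130 chain, JAK kinases on these receptors phosphorylate STAT3, and STAT3 dimers then enter the nucleus and bind DNA. SOCS proteins, PIAS proteins and phosphatases restrain the pathway, and Socs3 is a STAT3 target in many cells. In mouse embryonic stem cells the pathway sustains self-renewal, and in this culture the germ cells enter meiosis, assemble into follicles with the somatic cells and begin to grow.

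Of 12306 genes tested, 3360 were called in the Stat3 knockout against the wild type, 27.3% of all. A call required an adjusted p under 0.05 in limma, with Benjamini-Hochberg adjustment over all genes tested, and a change of at least 1 in log2(TPM + 1), where TPM is a transcript abundance corrected for gene length and scaled to the same total in each library. Higher calls made up 1947, 15.8% of the genes tested, and lower calls 1413, or 11.5%. Counts of called genes in the lists below stand beside these shares, and no list was tested as a set. The median change over all genes was 0.09. Rescaling the libraries by their median of ratios shifted genes by a median of -0.15 and brought the overall median to 0.00. After rescaling 1541 genes were called higher and 1626 lower, so the share of higher calls was 48.7% against 57.9% before it. Changes of at least 3 were more often falls, with 134 genes higher and 198 lower. The libraries detected 9819 and 9768 genes at 1 TPM or more in the Stat3 knockout, and 9577 and 9340 in the wild type. TPM keeps no read depth, and the genes analysed here lie nearly all on chromosomes 1 to 5 and 10 to 19. In these bulk libraries fewer cells of a kind and less RNA per cell cannot be told apart. With 2 libraries in each group, values can also be free of overlap by chance, and the share of all genes without overlap is not given here.

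Stat3, on chromosome 11 (GRCm38, 100885098 to 100939540, minus strand), was measured at 74.0 and 68.7 TPM in the Stat3 knockout libraries, against 309 and 328 TPM in the wild type. The 2 groups did not overlap, and transcript remained in both knockout libraries. The change was -2.15 ± 0.077 (SE), with an adjusted p of 8.7e-18. Which exons the remaining reads covered was not analysed here. The other 3 knockouts sorted on day 11 also held less Stat3 transcript than the wild type, at 92 TPM for Figla, 109 TPM for the libraries labelled Sub1 and 123 TPM for Lhx8 (means of 2). Set directly against these groups, the Stat3 knockout had changes of -0.36 ± 0.077 against Figla, -0.61 ± 0.077 against Sub1 and -0.77 ± 0.077 against Lhx8 (adjusted p = 6.5e-04, 3.2e-06 and 1.9e-07), sizes under the call limit of 1. The level was therefore lowest in the Stat3 knockout among the 5 groups of day 11, next to Figla, and the wild type stood apart from all 4 knockouts. At day 13 the wild type held 486 and 497 TPM.

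**Figure D1:**
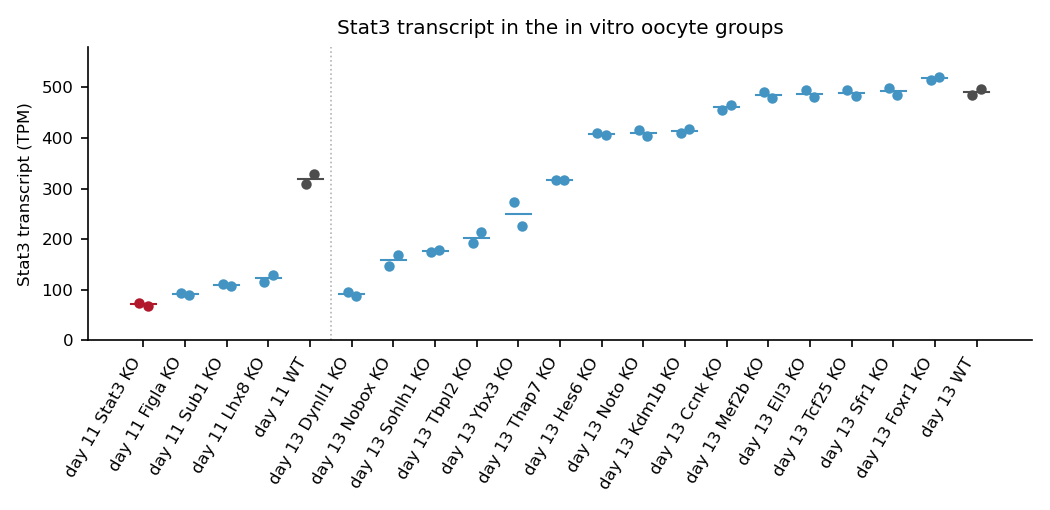
Stat3 transcript in TPM (vertical axis, from 0) in the 21 groups of in vitro oocytes, with 1 point per library and a line at the mean; the Stat3 knockout is red, other knockouts are blue, wild types are grey, and a dotted line parts day 11 from day 13. The Stat3 knockout libraries lie at 74.0 and 68.7 TPM, below all other groups, while 3 further day 11 knockouts lie between 90 and 129 TPM and the day 11 wild type at 309 and 328 TPM.

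Among receptors and ligands of the pathway 3 of 15 genes tested were called, all higher, where 27.3% of all genes were called. The list median was 0.29 beside 0.09 over all genes. Set directly against the Lhx8 knockout no gene of this list was called. Against Figla 4 were higher, and against Sub1 1 was higher and 1 lower. Cntfr, the receptor chain that binds ciliary neurotrophic factor and signals with gp130, reached 49.0 and 46.7 TPM in the Stat3 knockout, against 0.77 and 0 TPM in the wild type. The groups did not overlap, and the change was 5.20 ± 0.41 (adjusted p = 6.6e-11). Osmr, the receptor chain for oncostatin M, was at 5.42 and 4.13 TPM in the Stat3 knockout and at 0.48 and 0.03 TPM in the wild type, a change of 2.22 ± 0.44 (adjusted p = 1.4e-04). Il6ra, the interleukin 6 receptor, passed at the margin, with 2.96 and 5.52 TPM in the Stat3 knockout and 2.10 and 1.06 TPM in the wild type, and lost its call under most alternatives (adjusted p = 0.23 with a pseudocount of 0.1). The shared chain Il6st, which encodes gp130, was the most abundant receptor gene of the list at 61.6 and 64.0 TPM in the Stat3 knockout and 50.4 and 51.9 TPM in the wild type, and was not called (change 0.29, adjusted p = 0.18). Lifr, the receptor for leukemia inhibitory factor, had overlapping values of 5.79 and 3.57 TPM in the Stat3 knockout and 3.00 and 4.70 TPM in the wild type. The ligand genes Lif, Il6, Osm and Csf3 stayed under 1.3 TPM in all 4 libraries, and Cntf was listed at 0 in 1 library of each group.

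Kinases and STAT factors gave 1 higher and 3 lower calls among 9 genes tested, Stat3 itself included (median -0.24), where 27.3% of all genes were called. Directly against Lhx8 and Figla none of the 9 was called, and against Sub1 1 was lower. Stat6, the STAT factor of interleukin 4 signalling, was at 8.04 and 11.4 TPM in the Stat3 knockout and at 41.9 and 30.8 TPM in the wild type, a change of -1.80 ± 0.20 (adjusted p = 3.8e-08) with no overlap. Stat4, which acts downstream of interleukin 12 in lymphocytes, was nearly undetected at 0 and 0.05 TPM in the Stat3 knockout, against 2.79 and 2.93 TPM in the wild type. Its call did not survive leaving out any 1 of the 4 libraries, where its change was -1.95 to -1.88, and was kept under the other alternatives tried. Stat5a was called higher at 2.59 and 5.01 TPM in the Stat3 knockout, against 1.13 and 1.22 TPM in the wild type, and the call was lost after rescaling, where its change was 0.94. The kinase Jak1 was abundant, at 141 and 139 TPM in the Stat3 knockout and 111 and 103 TPM in the wild type, and Jak2 had 50.9 and 52.4 TPM in the Stat3 knockout and 69.5 and 53.6 TPM in the wild type; neither was called. Stat2 (change -0.37) and Stat5b (0.35) were not called.

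The inhibitors gave 4 higher and 1 lower call among 13 genes tested (median 0.16), where 27.3% of all genes were called. None was called directly against Lhx8, while 1 was higher and 1 lower against Figla and 1 was higher against Sub1. Socs3, the feedback inhibitor, was at 53.9 and 54.0 TPM in the Stat3 knockout, against 18.9 and 18.8 TPM in the wild type, so both knockout libraries lay above both wild-type libraries. Its change was 1.47 ± 0.56 with an adjusted p of 0.035, where the SE draws on the spread of all 42 libraries fitted. The call was lost after rescaling (adjusted p = 0.067) and without any 1 of the 4 libraries, where its change was 1.46 to 1.47. It was kept on day 11 libraries alone, on the compared groups alone and without the Sohlh1 knockout libraries. Socs4 rose by 1.33 ± 0.27, with 56.9 and 60.2 TPM in the Stat3 knockout against 17.9 and 28.5 TPM in the wild type (adjusted p = 2.1e-04). Socs6 (change 1.12) and Ptpn2 (1.10), a phosphatase that acts on STAT factors, were called higher too, but both fell under the limit after rescaling, at 0.96 and 0.94. Pias3, an inhibitor of DNA binding by STAT3, fell by 1.13 on the log2 scale, with 17.6 and 16.6 TPM in the Stat3 knockout and 35.9 and 41.4 TPM in the wild type (adjusted p = 5.3e-05). With the rescaled values Socs4 was the single inhibitor called higher, and Ptpn11 (change -1.12) joined Pias3 among the lower calls.

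**Figure D2:**
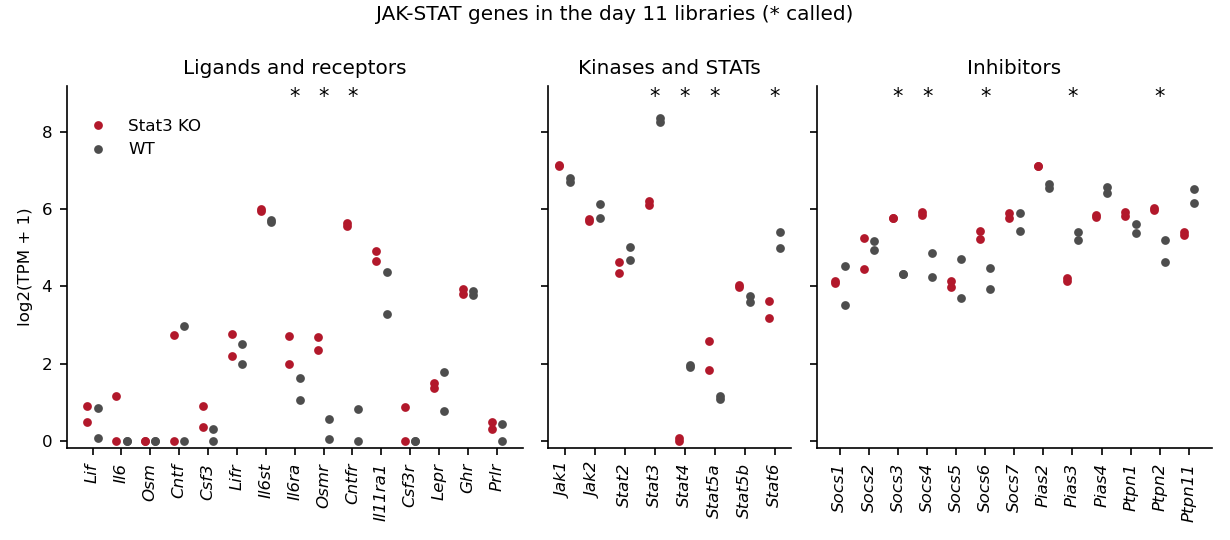
Values of log2(TPM + 1) (vertical axis) for JAK-STAT genes tested, in 3 panels by role, with red points for the 2 Stat3 knockout libraries on the left of each gene and grey points for the 2 wild-type libraries on the right; a star marks a called gene. Cntfr, Osmr and Socs3 lie higher in the knockout, Stat3, Stat4 and Stat6 lie lower, and the gp130 gene Il6st lies near the same level in both.

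Genes known as STAT3 targets in other cells gave 2 higher and 2 lower calls among 16 tested (median 0.16), a share near the 27.3% of all genes called, and 0 to 1 stayed higher after rescaling or without single libraries. Besides Socs3, the stem cell factor Tfcp2l1 was higher, at 19.9 and 21.4 TPM in the Stat3 knockout against 10.0 and 6.79 TPM in the wild type (change 1.23 ± 0.24, adjusted p = 1.3e-04); without the second wild-type library its change was 0.98. Gbx2, another target of the pathway in stem cells, was lower, at 1.88 and 1.45 TPM in the Stat3 knockout against 4.82 and 12.8 TPM in the wild type (change -1.75 ± 0.31, adjusted p = 3.4e-05). Birc5, the chromosomal passenger protein survivin, was the other lower call, at 95.6 and 85.0 TPM in the Stat3 knockout and 235 and 231 TPM in the wild type (change -1.36). Fos had 438 and 441 TPM in the Stat3 knockout and 360.5 and 372 TPM in the wild type, and Mcl1, which protects cells from apoptosis, 167 and 179 TPM in the Stat3 knockout and 203 and 215 TPM in the wild type. Neither was called, and values of Myc and Klf4 overlapped. Directly against Lhx8 no tested gene of this list was called, while 2 were higher against Figla and 1 was higher against Sub1.

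Interferon-stimulated genes, many of which are driven by other STAT factors, gave 1 higher and 3 lower calls among 17 (median -0.20), beside 27.3% of all genes called. Ifit1, which binds viral RNA, was at 5.83 and 2.01 TPM in the Stat3 knockout and at 37.0 and 24.3 TPM in the wild type, a change of -2.77 ± 0.38 (adjusted p = 8.3e-07). The RNA sensor Ddx58, also known as RIG-I, went the other way, with 35.7 and 36.2 TPM in the Stat3 knockout against 9.54 and 4.91 TPM in the wild type (change 2.23 ± 0.58, adjusted p = 0.0024). Ifih1, a related sensor, fell by 1.48 on the log2 scale, and Isg15 was lower by -1.75 ± 0.69 but lost its call without any 1 of the 4 libraries. Ddx58 and Ifih1 lost theirs with a pseudocount of 0.1 (adjusted p = 0.06 and 0.08).

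Genes of the growing oocyte were lower by large amounts. In the egg coat and secretion list 8 of 9 genes were lower (median -5.49), in the subcortical maternal complex all 4 tested (median -4.61), and among growing-oocyte transcripts 12 of 17, with 1 higher (median -3.12). Padi6, an enzyme-like protein of the cytoplasmic lattices of the egg, was at 25.7 and 33.1 TPM in the Stat3 knockout, against 4245 and 4138 TPM in the wild type, a change of -7.12 ± 0.12 (adjusted p = 7.7e-25). The partner proteins of the maternal complex lay lower by less, with Tle6 at 77.0 and 72.1 TPM in the Stat3 knockout and 1211 and 1201 TPM in the wild type. Zbed3 was at 13.8 and 12.4 TPM in the Stat3 knockout and 321 and 350 TPM in the wild type. No knockout library reached a wild-type library in any of these genes, and all kept their calls under the alternatives tried.

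Zp3, a sperm receptor of the zona pellucida, was at 9.95 and 11.7 TPM in the Stat3 knockout and at 1943 and 1843 TPM in the wild type (change -7.33 ± 0.11, adjusted p = 7.6e-26). Astl, the protease that cleaves the zona after fertilization, was at 1.6 and 0.48 TPM in the Stat3 knockout and at 237 and 234 TPM in the wild type (change -6.91 ± 0.31). Npm2, a histone chaperone of the egg, was at 13.9 and 15.9 TPM in the Stat3 knockout, against 805 and 715 TPM in the wild type, and Gja4, the connexin of the junctions between oocyte and granulosa cells, was at 9.01 and 7.19 TPM in the Stat3 knockout, against 199 and 208 TPM in the wild type. The gap junction gene Gjc1 was the single higher call of the growing-oocyte list, at 153 and 154 TPM in the Stat3 knockout and 64.4 and 52.6 TPM in the wild type (change 1.38 ± 0.19). Oas1c, Oas1d, Oas1e and Oas1h fell by 4.97 to 6.46 on the log2 scale, but these near-identical copies can share reads and their single values are uncertain. Oog1, Oog3 and Oog4 were listed at 0 in all 4 libraries.

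Of 13 oocyte transcription factors tested 6 were lower and 2 higher (median -0.86). Lhx8, a LIM homeobox factor needed for the follicle stage, was at 27.4 and 32.1 TPM in the Stat3 knockout and at 374 and 287 TPM in the wild type (change -3.42 ± 0.12, adjusted p = 2.9e-18). Sohlh1, a helix-loop-helix factor of the oocyte, was at 148 and 176 TPM in the Stat3 knockout and at 1125 and 1218 TPM in the wild type, a change of -2.85 ± 0.42. Its close relative Sohlh2 moved in the opposite direction, with 212 and 264 TPM in the Stat3 knockout against 77.8 and 94.9 TPM in the wild type (change 1.45 ± 0.14, adjusted p = 1.5e-09). Tbpl2, which replaces the TATA-binding protein in growing oocytes, was at 0.11 and 1.18 TPM in the Stat3 knockout and at 67.0 and 64.1 TPM in the wild type (change -5.42 ± 0.49). Taf4b, a subunit of the general factor TFIID enriched in germ cells, rose to 137 and 125 TPM in the Stat3 knockout, against 41.1 and 32.2 TPM in the wild type. Foxo3, which holds primordial follicles dormant, had overlapping values and a change of 0.00 ± 0.15, with 82.5 and 93.2 TPM in the Stat3 knockout and 88.3 and 86.8 TPM in the wild type.

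Maternal mRNA storage genes gave 5 lower and no higher calls among 12 (median -0.99). In each direct contrast, with Lhx8, Figla and Sub1, 1 of the 12 was lower and none higher. Zar1, which stores maternal mRNA, was listed at 0 and 0.68 TPM in the Stat3 knockout and at 59.1 and 46.9 TPM in the wild type (change -5.37 ± 0.21). The oocyte form of the cap-binding protein, Eif4e1b, was at 0.18 and 0.08 TPM in the Stat3 knockout and at 81.9 and 97.9 TPM in the wild type (change -6.33 ± 0.78), while the RNA-binding protein Ybx2 kept 388 and 401 TPM in the Stat3 knockout beside 1488 and 1464 TPM in the wild type. Eif4enif1, a repressor of translation, was not called, at 255 and 246 TPM in the Stat3 knockout and 247 and 225 TPM in the wild type. Among regulators of meiotic arrest and resumption 4 of 16 were lower and 2 higher (median -0.21), where 27.3% of all genes were called. Directly against Lhx8 none of the 16 was called, against Figla 2 were lower, and against Sub1 1 was higher and 1 lower. Fzr1, an activator of the anaphase-promoting complex that keeps oocytes arrested, was at 103.5 and 108 TPM in the Stat3 knockout and at 320 and 303 TPM in the wild type (change -1.55 ± 0.078), and Gpr3, Cdc25b and Mos were the other lower calls, with changes of -2.08, -2.07 and -3.12. The adenylate cyclase Adcy3, which makes cyclic AMP, rose by 2.32 ± 0.61 (adjusted p = 0.0029), with 26.4 and 24.0 TPM in the Stat3 knockout and 3.96 and 4.51 TPM in the wild type. Its relative Adcy9, the other higher call, fell under the limit after rescaling (0.87), without the first wild-type library (0.86) and without the second Stat3 knockout library (0.97).

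Promoters were searched for letters that fit binding sites of factors of this comparison, in the 250 bases before the RefSeq gene start (GRCm38.p6), on both strands. Of 12306 genes tested 9145 had a promoter in RefSeq. CAGGTG, one spelling of the E-box to which helix-loop-helix factors bind, stood in 309 of 1068 promoters of genes called lower (28.9%), in 247 of 1461 of genes called higher (16.9%) and in 1796 of all 9145 (19.6%). TTCNNNGAA, the spaced site of STAT dimers, stood in 6.84% of the lower, 7.26% of the higher and 7.13% of all, and the stricter TTCCNGGAA, which every time is also a TTCNNNGAA, in 1.03%, 1.85% and 1.22%. TAATTG, a homeobox site, stood in 6.37% of the lower, 5.27% of the higher and 5.66% of all. These shares are counts of letters with no test. In the egg coat and secretion list CAGGTG stood in 4 of 5 promoters, and in the subcortical maternal complex in 2 of 4; among the spindle and checkpoint genes it stood in 0 of 21. It was also found in lists whose median did not fall, with 6 of 13 JAK-STAT ligands and receptors, Cntfr among them, 7 of 15 piRNA genes and 3 of 10 meiotic axis genes, Sycp3 and Rec8 among them. The 7 piRNA genes included Tdrd1, Tdrd9 and Henmt1, called lower, and Tdrkh, called higher.

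Shown here are 3 promoters of genes with large falls that hold CAGGTG, then that of Socs3, the single JAK-STAT inhibitor of 6 with a promoter that holds TTCNNNGAA, and that of Dmc1, which rose and holds no CAGGTG. Capitals mark CAGGTG, or its reverse CACCTG, in the first 3 and TTCNNNGAA in Socs3, and the sequences are from RefSeq (GRCm38.p6), read along the gene from 5′ to 3′.
Zp3, chr5:135979855-135980104, plus strand: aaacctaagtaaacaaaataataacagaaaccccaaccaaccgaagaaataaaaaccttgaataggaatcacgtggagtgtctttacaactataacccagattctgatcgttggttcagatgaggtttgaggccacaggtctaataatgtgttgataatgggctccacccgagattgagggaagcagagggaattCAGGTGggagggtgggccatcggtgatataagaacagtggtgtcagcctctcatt
Padi6, chr4:140742644-140742893, minus strand: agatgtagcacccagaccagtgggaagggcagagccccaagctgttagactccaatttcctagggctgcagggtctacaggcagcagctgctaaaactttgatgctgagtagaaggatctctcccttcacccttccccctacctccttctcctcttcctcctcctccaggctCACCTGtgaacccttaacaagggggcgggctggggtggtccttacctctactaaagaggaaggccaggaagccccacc
Astl, chr2:127341386-127341635, plus strand: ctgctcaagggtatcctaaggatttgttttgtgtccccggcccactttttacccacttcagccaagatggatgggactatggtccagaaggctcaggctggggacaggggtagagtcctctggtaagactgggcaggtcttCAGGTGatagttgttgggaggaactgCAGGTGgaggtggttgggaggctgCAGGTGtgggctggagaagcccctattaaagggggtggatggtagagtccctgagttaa
Socs3, chr11:117969367-117969616, minus strand: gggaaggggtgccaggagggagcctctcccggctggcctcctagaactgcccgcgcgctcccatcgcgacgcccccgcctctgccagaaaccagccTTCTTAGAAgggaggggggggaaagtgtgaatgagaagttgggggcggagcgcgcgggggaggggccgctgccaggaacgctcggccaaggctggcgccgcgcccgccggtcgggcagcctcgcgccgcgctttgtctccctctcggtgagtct
Dmc1, chr15:79605110-79605359, minus strand: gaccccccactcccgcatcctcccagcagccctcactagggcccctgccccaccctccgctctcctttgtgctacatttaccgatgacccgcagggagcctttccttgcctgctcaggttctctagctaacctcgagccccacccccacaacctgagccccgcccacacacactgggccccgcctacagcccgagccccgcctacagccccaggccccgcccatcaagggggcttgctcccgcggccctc
The match began 55 bases before the start of Zp3, 78 before that of Padi6 and 154 before that of Socs3. Astl, shown with the RefSeq start of the 2 that holds it, had 3 matches.

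Meiotic chromosome genes were higher. In the list of axis and synaptonemal complex genes 8 of 10 were called higher and none lower (median 2.92), and among break and recombination genes 11 of 18 were higher and 1 lower (median 1.77). Directly against Lhx8 and Sub1 no gene of either list was called. Against Figla 2 axis genes were higher and 2 lower, and 1 recombination gene was lower. The axis list summed to 6154 and 5983 TPM in the Stat3 knockout, 6275 and 5969 TPM in Lhx8 and 1940 and 1939 TPM in the wild type. Sycp2, which lines the chromosome axis, was at 310 and 305 TPM in the Stat3 knockout and at 35.5 and 39.2 TPM in the wild type (change 3.01 ± 0.19, adjusted p = 9.3e-13). Rad21l, a meiotic cohesin subunit, was at 193 and 221 TPM in the Stat3 knockout and at 28.6 and 18.5 TPM in the wild type (change 3.11 ± 0.28). Both genes were separated between the groups without overlap. Sycp3 was abundant in every library, at 2445 and 2312 TPM in the Stat3 knockout and 1094 and 1190.4 TPM in the wild type, and its change of 1.06 ± 0.049 was just over the limit, under which it fell after rescaling (0.90). Sycp1 lay just under it (change 0.92), and Syce3 had overlapping values. Rec8, the meiotic cohesin, was at 141 and 161 TPM in the Stat3 knockout and 13.8 and 13.3 TPM in the wild type, and lost its call with a pseudocount of 0.1 (adjusted p = 0.067).

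Spo11, the enzyme that cuts the DNA, was at 114 and 113 TPM in the Stat3 knockout and at 9.34 and 15.2 TPM in the wild type (change 3.14 ± 0.70, adjusted p = 5.8e-04). Prdm9, which marks the sites of cutting, was at 315 and 300.3 TPM in the Stat3 knockout and at 26.4 and 18.3 TPM in the wild type (change 3.75 ± 0.26). Hfm1, a helicase of crossover formation, was at 199 and 205 TPM in the Stat3 knockout and at 18.0 and 11.2 TPM in the wild type (change 3.74 ± 0.17). Dmc1, the meiotic strand-exchange protein, changed by 4.57 ± 0.31. Mnd1, which assists strand exchange, was the lower call of the list (change -1.49 ± 0.17), with 37.0 and 31.1 TPM in the Stat3 knockout and 84.4 and 111 TPM in the wild type, and its partner Psmc3ip had overlapping values.

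Meiotic entry genes split, with 4 higher and 5 lower among 13 tested (median 0.34), beside 15.8% higher and 11.5% lower of all genes. The higher ones were the RNA-binding proteins Dazl, Ythdc2 and Rbm46, which germ cells need to enter or stay in meiosis, and Rara, a retinoic acid receptor. Rbm46 was at 168 and 174 TPM in the Stat3 knockout and at 39.2 and 33.6 TPM in the wild type (change 2.20 ± 0.24). Rara lost its call after rescaling (change 0.92). The lower calls were Bmp2, Msx2 and the genes of the Id family, whose proteins bind helix-loop-helix factors and keep them off DNA and which are common targets of BMP signals. Bmp2 and Msx2 were low and lost their calls under several alternatives, while the Id genes kept theirs.

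Id1 was at 35.2 and 35.7 TPM in the Stat3 knockout and at 259 and 281 TPM in the wild type, a change of -2.89 ± 0.18 (adjusted p = 6.1e-13). Id2 was at 46.9 and 36.4 TPM in the Stat3 knockout and at 206 and 194 TPM in the wild type (change -2.25 ± 0.16), and Id3 was at 60.0 and 59.3 TPM in the Stat3 knockout and at 224 and 237 TPM in the wild type (change -1.93 ± 0.089). All 3 were separated without overlap. Their levels also set the Stat3 knockout against the other knockouts of day 11. Id1 averaged 393 TPM in Lhx8, 957 TPM in Figla and 228 TPM in the Sub1-labelled libraries, and the direct changes of the Stat3 knockout were -3.43, -4.72 and -2.65 (adjusted p = 1.0e-12, 2.4e-16 and 7.1e-11). Id3 was lower in the Stat3 knockout than in Lhx8 (-1.30), Figla (-2.24) and Sub1 (-1.0), of which the last lies at the limit and was not called. Id2 was lower than in Figla (-1.55) and Sub1 (-1.48) but not by the limit against Lhx8 (-0.66, adjusted p = 0.0063). The direct contrasts and the comparison with the wild type share the Stat3 knockout libraries. Marker sums of other cells, given below, also differed between these groups, and their part in the Id levels was not tested.

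**Figure D3:**
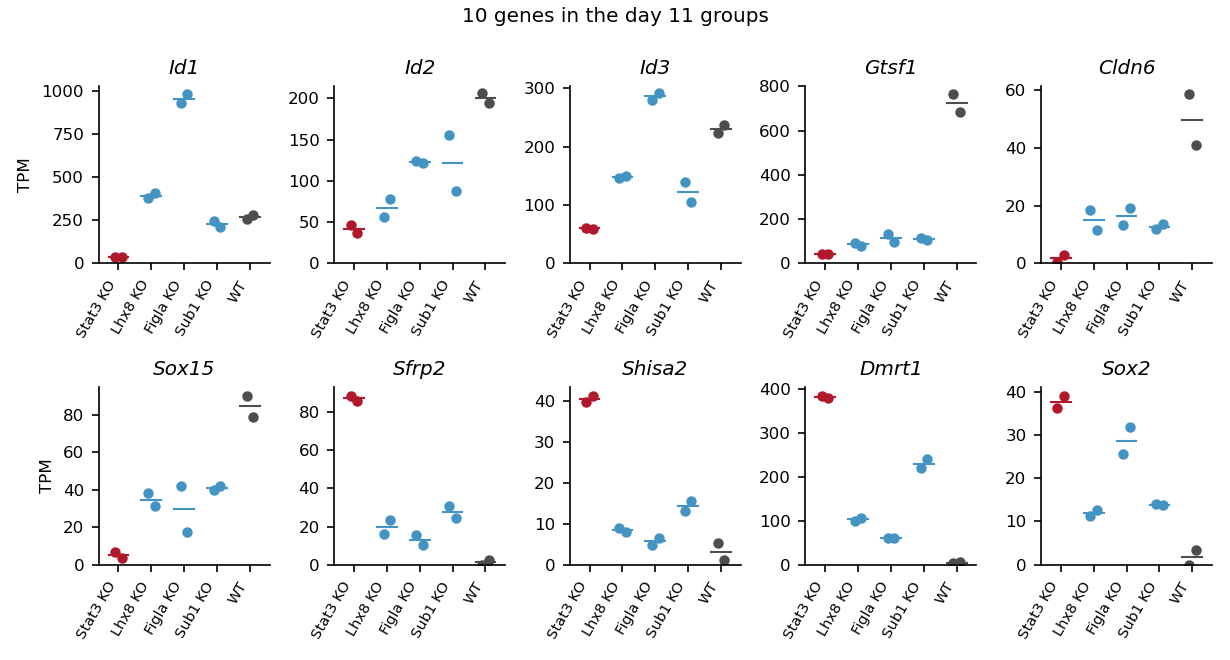
TPM (vertical axes, each from 0) of 10 genes in the 5 groups of day 11, with 1 point per library and a line at the mean; the Stat3 knockout is red, the other knockouts blue and the wild type grey. Id1 and Id3 are lowest in the Stat3 knockout, at 35.2 to 60.0 TPM, and Sfrp2, Shisa2, Dmrt1 and Sox2 are highest there.

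Germ cell and pluripotency genes gave 9 higher and 5 lower calls among 21 (median 0.74). Dmrt1, a DM-domain factor of germ cells, was at 384 and 380.2 TPM in the Stat3 knockout and at 2.86 and 5.39 TPM in the wild type (change 6.27 ± 0.32, adjusted p = 8.6e-15). Sox2, a pluripotency factor that early germ cells also express, was at 36.1 and 39.0 TPM in the Stat3 knockout and at 0 and 3.38 TPM in the wild type (change 4.20 ± 0.43, adjusted p = 7.6e-09). Prdm14, which helps to specify germ cells, was at 8.28 and 4.35 TPM in the Stat3 knockout against 0 TPM in each wild-type library. Klf5, a stem cell factor, had 26.5 and 26.3 TPM in the Stat3 knockout, against 2.21 and 4.19 TPM in the wild type. Pou5f1 moved the other way, to 87.3 and 95.1 TPM in the Stat3 knockout against 374 and 392 TPM in the wild type (change -2.06 ± 0.098), as did Lin28a (change -1.83 ± 0.17), an RNA-binding protein, whose relative Lin28b was higher (1.48). Tcl1 fell by 3.54 on the log2 scale. Esrrb, a stem cell factor, was higher (1.12) but lost its call under several alternatives, with a change of 0.29 without the second wild-type library. The list thus held members of both directions: Sox2, Prdm14 and Klf5 were higher, and Pou5f1, Lin28a, Gbx2 and Tcl1 lower.

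The genes of piRNA and transposon control were divided as well, with 5 higher and 5 lower among 17 (median 0.14). Gtsf1, a zinc finger protein that works with PIWI proteins, was at 40.3 and 43.1 TPM in the Stat3 knockout and at 766 and 682 TPM in the wild type (change -4.09 ± 0.11, adjusted p = 3.3e-20). Tudor proteins were found on both sides. Tdrd1 was at 36.0 and 31.3 TPM in the Stat3 knockout and at 291 and 299 TPM in the wild type (change -3.10 ± 0.12), with Tdrd5 (-2.44) and Tdrd9 (-1.69) also lower. Tdrd7 was at 126 and 109 TPM in the Stat3 knockout and at 54.4 and 45.3 TPM in the wild type (change 1.22 ± 0.23), and Tdrkh rose by 1.48 ± 0.25. Ddx4, the germ cell helicase also called VASA, was higher at 522 and 524 TPM in the Stat3 knockout against 205 and 214 TPM in the wild type. The PIWI gene Piwil2 was not called, with 201 and 219 TPM in the Stat3 knockout and 289 and 296 TPM in the wild type.

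DNA methylation genes gave 5 higher and 3 lower calls among 14 (median 0.60). The lower ones were Zfp57, which protects imprints, Kdm1b, a histone demethylase needed to set imprints in oocytes, and Uhrf1, which guides maintenance methylation. Kdm1b was at 61.0 and 51.2 TPM in the Stat3 knockout and at 552 and 605 TPM in the wild type (change -3.35 ± 0.12), and Uhrf1 was at 50.5 and 53.2 TPM in the Stat3 knockout and at 325 and 325 TPM in the wild type (change -2.63 ± 0.093). Both genes were separated without overlap. Hells, a chromatin remodeller, rose to 698 and 664 TPM in the Stat3 knockout against 156 and 141 TPM in the wild type (change 2.19 ± 0.12), and Setdb1, a histone methyltransferase, to 428 and 421 TPM in the Stat3 knockout against 118 and 121 TPM in the wild type (change 1.82 ± 0.080). Tet1, which oxidises methylcytosine, was higher at a lower level (change 1.79 ± 0.26), and the methyltransferase genes Dnmt3a and Dnmt3b had changes of -0.86 and 0.71, under the limit.

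Among 21 genes of p53, p63 and apoptosis 4 were lower and 3 higher (median 0.10), beside 27.3% of all genes called. Directly against Lhx8 1 was lower, against Figla 5 were higher and 1 lower, and against Sub1 2 were lower. Trp63, whose product removes oocytes with damaged DNA, was at 1.47 and 0.54 TPM in the Stat3 knockout and at 79.3 and 95.6 TPM in the wild type (change -5.50 ± 0.18, adjusted p = 8.4e-19). Chek2, a kinase that acts upstream of p63 in the oocyte, fell by 1.64 ± 0.25 on the log2 scale, and Pmaip1, a death gene downstream of it, by 2.05 ± 0.19. The stress gene Sesn2 was higher, at 88.7 and 112 TPM in the Stat3 knockout and 10.3 and 20.5 TPM in the wild type (change 2.69 ± 0.35), and so was Apaf1 of the apoptosome (2.18 ± 0.35). Trp53 itself had a change of 0.87. Of the Kit, PI3K and FOXO genes 14 of 17 were uncalled, and none of the 17 was called directly against Lhx8, Figla or Sub1. Skp2, which helps to degrade cell cycle inhibitors, was called higher but lost its call without any 1 of the 4 libraries (adjusted p 0.077 to 0.15). Tsc1, an inhibitor of growth signalling, was higher at 79.3 and 78.7 TPM in the Stat3 knockout and 27.8 and 36.9 TPM in the wild type (change 1.28 ± 0.17). Kit, the receptor by which granulosa cells activate the oocyte, was the lower call, at 144 and 139.7 TPM in the Stat3 knockout and 455 and 494 TPM in the wild type (change -1.74 ± 0.077).

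Replication genes were mostly higher where called, 8 against 1 among 21 (median 0.87). Directly against Lhx8 and Sub1 none of the 21 was called, and against Figla 2 were higher. Cdc45, part of the replicative helicase, was at 225 and 195 TPM in the Stat3 knockout and at 36.6 and 30.6 TPM in the wild type (change 2.61 ± 0.19), and Pole, a replicative polymerase, at 165 and 156 TPM in the Stat3 knockout and 32.3 and 21.9 TPM in the wild type (change 2.54 ± 0.13). Spindle and checkpoint genes had 8 higher and 3 lower calls among 26 (median 0.65). Directly against Lhx8 1 of the 26 was higher, against Figla 4 and against Sub1 1, with none lower. Cenpf, of the outer kinetochore, was at 300.2 and 292 TPM in the Stat3 knockout and at 45.8 and 47.8 TPM in the wild type (change 2.64 ± 0.14). The lower calls were Birc5, Pttg1 and Ube2c, which encode survivin, securin and a ubiquitin-conjugating enzyme of the anaphase-promoting complex. Ube2c was at 181 and 194 TPM in the Stat3 knockout and at 948 and 778 TPM in the wild type (change -2.19 ± 0.099). The main mitotic kinase gene Cdk1 was not called (change -0.54).

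Metabolic and stress lists were near the median of all genes, of which 27.3% were called. Glycolysis and glucose uptake had 2 higher and 2 lower calls among 11 (median 0.05), with the lactate and pyruvate carrier Slc16a1 at 96.1 and 111 TPM in the Stat3 knockout and 32.9 and 34.1 TPM in the wild type (change 1.6 ± 0.12). Pdk1, which restrains pyruvate dehydrogenase, was lower, at 20.9 and 21.1 TPM in the Stat3 knockout and 56.5 and 75.2 TPM in the wild type (change -1.59 ± 0.13). The other calls of that list were Pfkp, higher, and Pfkl, lower, which are subunits of phosphofructokinase. Pfkl lost its call without any 1 of the 4 libraries (adjusted p 0.053 to 0.13), and Pfkp without the first wild-type library (0.24), without the first Stat3 knockout library (0.097) and with a pseudocount of 0.1 (0.069). Cholesterol synthesis had 2 higher and 3 lower calls among 18 (median -0.08), Insig1 among the lower (-1.72 ± 0.12), and Srebf2 among the higher fell under the limit after rescaling (0.90). Of the immediate early and heat shock genes 13 of 15 were uncalled (median -0.17), and the 2 calls, both higher, were the near-identical copies Hspa1a and Hspa1b. Hspa1b lost its call without the first wild-type library (adjusted p = 0.056) and on the compared groups alone (0.054).

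**Figure D4:**
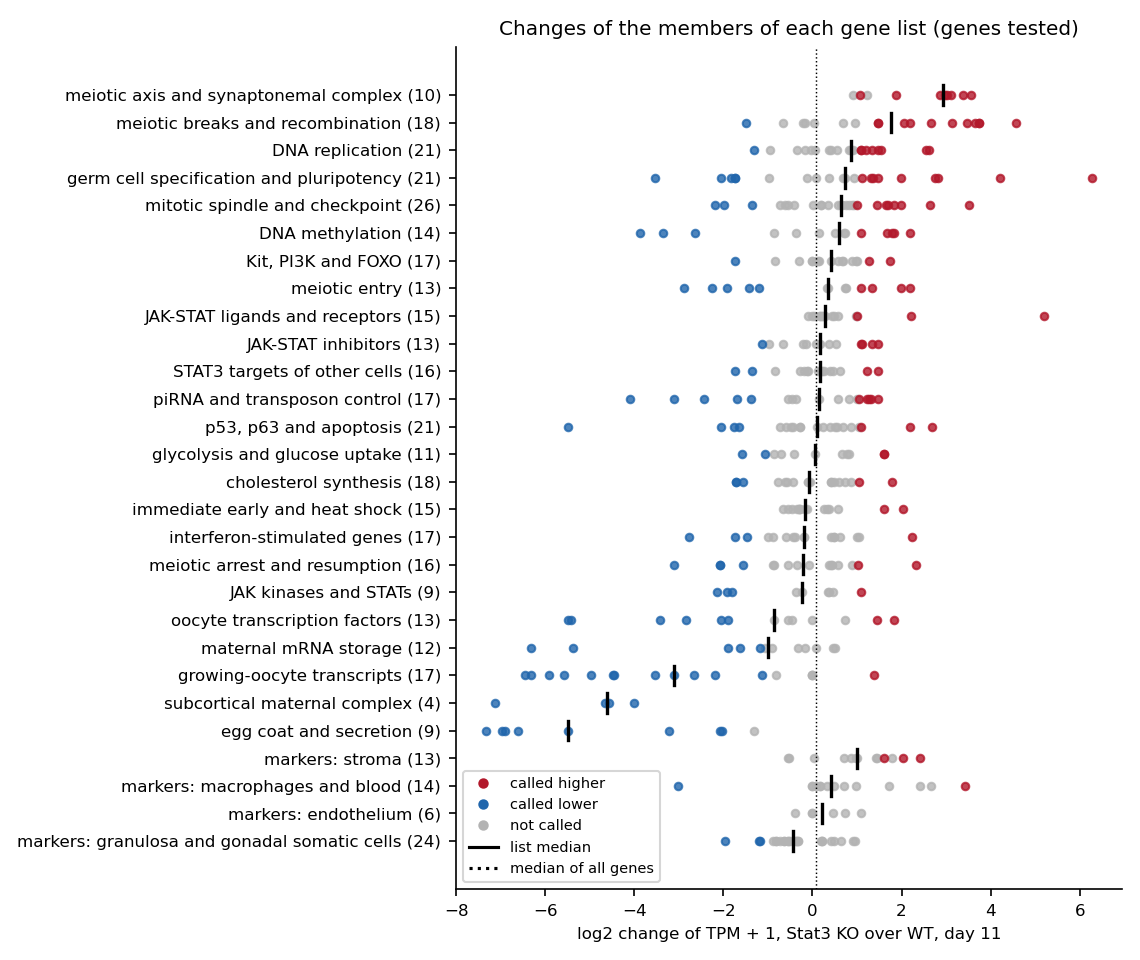
Change in log2(TPM + 1), Stat3 knockout over wild type, on the horizontal axis for each tested member of 28 gene lists (rows, with the number tested), where red points were called higher, blue points called lower and grey points were not called; a black bar is the list median and the dotted line the median of all genes at 0.09. Egg coat, maternal complex and growing-oocyte lists lie to the left with medians of -5.49, -4.61 and -3.12, and meiotic axis and recombination lists to the right with medians of 2.92 and 1.77.

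Beyond the lists, the genes with the largest rises included Mdk, the growth factor midkine, at 312 and 329 TPM in the Stat3 knockout and 9.18 and 2.41 TPM in the wild type (change 5.77 ± 1.2, adjusted p = 1.9e-04). Slc22a21, a carnitine transporter, was at 109 and 116 TPM in the Stat3 knockout and at 4.21 and 1.67 TPM in the wild type (change 4.93 ± 0.29), and Ccne2, a cyclin of the entry to S phase, at 302 and 296 TPM in the Stat3 knockout and 13.9 and 12.6 TPM in the wild type (4.39 ± 0.22). H2-Ab1, a class II histocompatibility chain, had 162 and 156 TPM in the Stat3 knockout, against 9.08 and 1.42 TPM in the wild type. None of these 4 genes was called in the direct contrast with the Lhx8 knockout, where their changes were -0.57 to 0.30. Nr1h3, the oxysterol receptor LXR alpha, Fgf11, a fibroblast growth factor family member, and Pramel1, of the PRAME family, were higher by 4.36, 4.33 and 4.38. Among the largest falls outside the lists, Cox4i2, an isoform of a respiratory chain subunit, was at 0.52 and 3.29 TPM in the Stat3 knockout and at 399 and 375.5 TPM in the wild type (change -7.25 ± 0.63). Miox, which oxidises myo-inositol, was at 0.54 and 2.61 TPM in the Stat3 knockout and at 134 and 143.5 TPM in the wild type, and Bfsp1, a filament protein known from the lens, at 6.84 and 4.22 TPM in the Stat3 knockout and 346 and 294 TPM in the wild type.

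The Stat3 knockout was next set against each of the other 3 knockouts of day 11 in the same fit, without the wild type. Calls numbered 474 against Lhx8 (3.85% of genes tested), 745 against the libraries labelled Sub1 (6.05%) and 2012 against Figla (16.3%). Against Lhx8 198 were higher and 276 lower, or 41.8% higher, and 30.5% after rescaling, with 132 higher and 301 lower. Against Figla 709 were higher and 1303 lower, and after rescaling 776 and 1029. Against Sub1 these counts were 227 and 518, and after rescaling 170 and 498. The genes measured here held shares of 0.708 and 0.708 of all TPM in Figla, beside 0.663 and 0.662 in the Stat3 knockout. In the series labels the Figla libraries also stand apart from the run that holds the other day 11 groups. The part of either in the count against Figla was not tested. The count against Lhx8 was 304 without the second Stat3 knockout library, and that against Sub1 487. Sub1 transcript was at 322 and 317 TPM in the Stat3 knockout, 345 and 316 TPM in the libraries labelled Sub1 and 448 and 481 TPM in the wild type, so the targeted gene did not set those libraries apart from the Stat3 knockout. Padi6 averaged 31.5 TPM in Lhx8 and 33.0 TPM in Figla beside 25.7 and 33.1 TPM in the Stat3 knockout, and its direct changes of -0.10 and -0.17 were not called. The Sub1-labelled libraries held 197 TPM of Padi6 (direct change -2.71). Of the 9 egg coat and secretion genes 1 was lower against Lhx8, 3 were higher and 1 lower against Figla, and 4 were lower against Sub1. Zp3 was higher in the Stat3 knockout than in Figla (change 2.26, adjusted p = 3.5e-14) and lower than in Sub1 (-2.26).

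Called the same way against the wild type and against each of the 3 other knockouts were 25 genes higher and 53 lower; the 4 contrasts share the Stat3 knockout libraries, and in the direct contrasts with Lhx8, Sub1 and Figla the higher calls made up 1.61%, 1.84% and 5.76% of genes tested and the lower calls 2.24%, 4.21% and 10.6%. Sfrp2, a secreted antagonist of WNT signals, was at 88.5 and 85.9 TPM in the Stat3 knockout, averaged 19.8, 13.0 and 27.7 TPM in Lhx8, Figla and Sub1, and was at 0 and 2.53 TPM in the wild type. Its direct changes were 2.11, 2.68 and 1.63, all of which lost their calls with a pseudocount of 0.1. Shisa2, of a family that retains receptors in the endoplasmic reticulum, was at 39.8 and 41.3 TPM in the Stat3 knockout and averaged 8.53, 5.76 and 14.4 TPM in Lhx8, Figla and Sub1, with 5.31 and 1.03 TPM in the wild type. Its call against Sub1 was lost on day 11 libraries alone (adjusted p = 0.087), without the first Sub1 library (0.057) and without the second Stat3 knockout library (0.062). Dennd2c, Adgrv1, Chd5, Igsf21, Pipox and Mgarp completed the higher genes named by the rule; their direct changes against Lhx8 were 1.33 to 2.16, and each lost at least 1 direct call under an alternative. Fitted on day 11 libraries alone, 4 genes rather than 25 were called higher in all 4 contrasts, and 39 rather than 53 lower; fitted on each pair of groups alone, the counts were 12 and 24.

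Among the lower genes Id1, Cldn6 and Sox15 kept every direct call under the alternatives tried. Cldn6, a claudin of tight junctions in early epithelia, was at 0.38 and 2.95 TPM in the Stat3 knockout, averaged 14.9, 16.2 and 12.6 TPM in Lhx8, Figla and Sub1, and was at 58.5 and 40.9 TPM in the wild type. Its direct changes were -2.74, -2.86 and -2.54. Sox15, a SOX family factor, was at 7.01 and 3.6 TPM in the Stat3 knockout and averaged 34.7, 29.7 and 41.1 TPM in Lhx8, Figla and Sub1, against 90.3 and 79.1 TPM in the wild type. Gtsf1 averaged 85.2, 112 and 110 TPM in Lhx8, Figla and Sub1 beside 40.3 and 43.1 TPM in the Stat3 knockout, with direct changes of -1.01, -1.39 and -1.38; that against Lhx8 fell under the limit without 1 library (-0.89 without the first Lhx8 library and -0.96 without the first Stat3 knockout library). Agr3, of the protein disulfide isomerase family, Asgr2, a chain of the asialoglycoprotein receptor, and Sdcbp2, a PDZ protein, were lower too, with changes of -3.03, -3.66 and -1.83 against Lhx8. On the compared groups alone Agr3 and Sdcbp2 lost their calls against Sub1 (adjusted p = 0.073 and 0.097). Asgr2 lost its call against Figla there (0.071) and after rescaling, where its change was -0.98. Dmrt1 was higher than in Figla (2.61) and Lhx8 (1.88, adjusted p = 0.058 with a pseudocount of 0.1), and was not called against Sub1 (0.73, adjusted p = 0.13). Against Figla the largest difference upward was Ccno, a cyclin-like gene, at 58.7 and 53.6 TPM in the Stat3 knockout beside 0 and 1.58 TPM in Figla. Ccno was nevertheless lower in the Stat3 knockout than in the wild type (change -3.81, adjusted p = 3.6e-14). Hesx1 and Lef1, a homeobox factor and a WNT pathway factor, followed against Figla with 4.70 and 3.67.

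Markers of other cells were then read in the same libraries. Summed TPM of 25 granulosa and gonadal somatic markers, 24 of them tested, was 1585 and 1607 in the Stat3 knockout and 1891 and 1949 in the wild type. It was 2616 and 2593 in Lhx8, 1540 and 1565 in Figla and 1528 and 1489 in Sub1. None of these markers was called higher than in the wild type, and Hsd17b1, Lgr5 and Bmp2 were called lower. Only 1 was lower with a pseudocount of 0.1, and each of them lost its call when at least 1 single library was left out. Fshr was listed at 0 in all 4 libraries. Stromal markers summed to 998 and 951 TPM in the Stat3 knockout and 904 and 915 TPM in the wild type. Their sums were 1430 and 1451 TPM in Lhx8, 843 and 865 TPM in Figla and 1420 and 1306 TPM in Sub1. Beside 15.8% of all genes called higher, Pdgfrb, Fn1 and Postn were called higher of 13. This count was 6 once the Sohlh1 knockout libraries of day 13 were left out of the fit, and 1 without the first wild-type library. Endothelial markers summed to 10.3 and 5.25 TPM in the Stat3 knockout and 5.59 and 2.79 TPM in the wild type, with Emcn and Tie1 listed at 0. The same sum was 16.6 and 15.8 TPM in Lhx8, 91.5 and 72.05 TPM in Figla and 6.23 and 10.3 TPM in Sub1. Macrophage and blood markers summed to 52.5 and 64.0 TPM in the Stat3 knockout and 28.0 and 46.3 TPM in the wild type, against 419 to 3334 TPM in the other day 11 knockouts. Fcer1g was called higher and C1qb lower of 14, and 4 were higher on day 11 libraries alone. Fcer1g lost its call without any 1 of the 4 libraries, where its change was 3.09 to 3.78, and kept it on the compared groups alone (adjusted p = 0.003). Lyz2, the macrophage lysozyme, was at 0.72 and 0.32 TPM in the Stat3 knockout and averaged 81.0, 197 and 661 TPM in Lhx8, Figla and Sub1. It was among the lowest genes of the Stat3 knockout in all 3 direct contrasts, and C1qb, a complement chain of macrophages, was too against Lhx8. Of the 14 macrophage and blood markers 4 were lower directly against Lhx8, 5 against Figla and 12 against Sub1, with none higher. C1qb was also among the 53 genes called lower in all 4 contrasts, so these need not all be genes of the oocyte. Of the 9 oocyte and germ cell markers tested 7 were called lower and 2 higher (median -5.58), and they summed to 2461 and 2389 TPM in the Stat3 knockout and 9835 and 9712 TPM in the wild type. The higher ones were the general germ cell genes Ddx4, at 522 and 524 TPM in the Stat3 knockout and 205 and 214 TPM in the wild type, and Dazl, at 1732 and 1618 TPM in the Stat3 knockout and 393 and 458 TPM in the wild type; the lower ones were the oocyte genes Gdf9, Npm2, Oosp1, Padi6, Sohlh1, Zp1 and Zp3. The part of other cells in the results above was not tested.

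**Figure D5:**
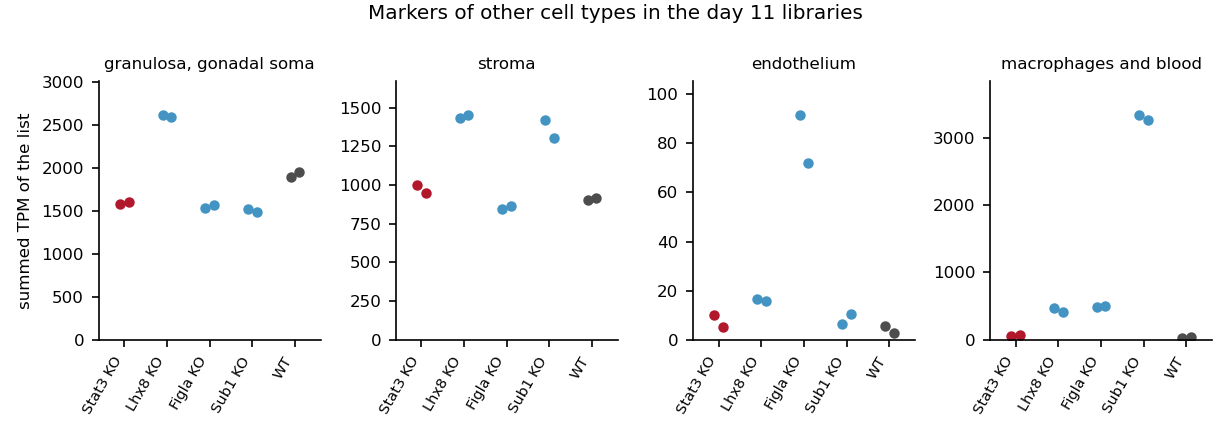
Summed TPM (vertical axes, each from 0) of 4 marker lists in the 10 libraries of day 11, 1 point per library, with the Stat3 knockout in red, other knockouts in blue and the wild type in grey. The macrophage and blood sum is 52.5 and 64.0 TPM in the Stat3 knockout and 28.0 and 46.3 TPM in the wild type, and 419 TPM or more in the 3 other knockouts.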

How the data were processed

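Gene expression in sorted in vitro oocytes was taken from the deposited table of TPM values, which the authors made from reads aligned with STAR 2.6.0 to mm10 and counted with featureCounts 1.6.0, per the submitters' processing notes. TPM keeps no read depth, so no counting interval is given. Of 15163 rows, 1 incomplete row and 22 rows with date-like names were dropped, and 14555 of the remaining 15140 genes matched GENCODE annotation of GRCm38. Of the table's columns 42 were used and 106 were not. Genes with at least 1 TPM in at least 2 of 42 libraries entered limma 3.58.1 (R 4.3.3) on log2(TPM + 1) with 21 groups, a shared spread, and Benjamini-Hochberg adjustment over all 12306 genes. The fit was tested on simulated data. Python 3.11.15 and pandas 2.3.3 were used for summaries and motif searches in RefSeq promoters.

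Members and gene lists were chosen with earlier results of these data known. Named genes were the JAK-STAT members, the 15 highest and 15 lowest called genes with a mean of at least 10 TPM and no overlap between groups, up to 6 called and 2 uncalled members of each list, members of list counts of 5 or fewer, up to 10 genes in each direction called alike in all 4 contrasts, and the 5 highest and lowest of each direct contrast. A further 12 genes, Cdk1, Dnmt3a, Dnmt3b, Esrrb, Foxo3, Lin28b, Myc, Oog3, Oog4, Piwil2, Sycp3 and Trp53, and the direct contrasts of some list members were chosen after their values were seen. The alternatives were a pseudocount of 0.1, no filter, a replicate block, rescaling by the median of ratios, a fit on day 11 or on the compared groups alone, and leaving out the Sohlh1 knockout or single libraries. Values of some list members are not reported here, though they count in their lists.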

Additional observations from a re-analysis of the deposited data

How the results depend on the processing

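The count of genes called against the wild type was 2967 to 3386 without single libraries and stayed within 1.5 times 3360 under every alternative tried, as did that against Figla. Calls against Lhx8 numbered 474 in all, 270 on day 11 libraries alone and 304 to 416 without single libraries. Calls against the libraries labelled Sub1 numbered 745 in all, 444 on day 11 libraries alone, 373 on the compared groups alone, and 487 to 898 without single libraries; the cause was not tested. Replicate numbers did not pair the samples (correlation of deviations between the Stat3 knockout and the wild type 0.019), and with a replicate block 3351, 464, 745 and 2017 genes were called against the wild type, Lhx8, Sub1 and Figla. Of 276 named genes none changed direction among those called, and rescaling cost 14 their call, the pseudocount of 0.1 cost 13, and leaving out 1 library cost 10 to 19. Without read counts, the precision of genes at low TPM could not be set from depth.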
